A study of Mus musculus with 3 samples.

Results

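Kit, Flt3 and 5 genes of the Ly6 family, Ly6a, Ly6d, Ly6e, Ly6c1 and Ly6c2, were followed through 3 early stages of blood cell development in the mouse. The 7 genes were taken by symbol from the 27998 genes in the files, and all 7 were found. The cells were taken from C57BL/6J bone marrow and sorted by surface proteins into 3 populations, each profiled as 1 droplet library of single cells with the 10x Chromium 3′ v2 chemistry. Lymphoid-primed multipotent progenitors (LMPP) carried the Kit, Sca1 and Flt3 proteins and lacked IL7Ra and B220. Common lymphoid progenitors (CLP) carried Kit, Sca1 and IL7Ra, were positive or negative for Flt3, and lacked B220. Pro-B cells carried Kit, IL7Ra and B220 and lacked Sca1 and Flt3. Sca1 is the protein of Ly6a, so 3 of the 7 genes encode sort markers and 4 do not. The labels give no age, sex or number of animals, and nothing shows whether animals were pooled.

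Kit and Flt3 are receptor tyrosine kinases of the same structural class. Kit binds stem cell factor and Flt3 binds Flt3 ligand, and both receptors pass their signal through Grb2, the PI3 kinase, the Ras and MAP kinase chain and STAT5 to keep early progenitors alive and dividing. Kit is known for its role in stem cells and mast cells, and Flt3 for its role in lymphoid and dendritic cell progenitors. The Ly6 proteins are small, disulfide-bonded proteins held on the outer face of the membrane by a glycosylphosphatidylinositol (GPI) anchor. Ly6a is the classical marker of mouse stem and multipotent cells, Ly6d is used to separate B-biased from less committed lymphoid progenitors, Ly6e is broadly expressed in blood cells, and Ly6c1 and Ly6c2 together encode the Ly6C antigen of monocytes, plasmacytoid dendritic cells and some lymphocytes.

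Transcripts were counted as unique molecular identifiers (UMIs, tags that each mark 1 captured transcript). The LMPP library kept 579 cells with 4014657 UMIs and a median of 6789 per cell. The CLP library kept 948 cells with 5967352 UMIs and a median of 6258.5, and the pro-B library 1106 cells with 7367156 UMIs and a median of 5687.5. Levels are UMIs summed over a library and scaled to 1000000 (CPM). Each population has 1 library, so no difference below has a replicate check, no test was made, and a difference between droplet runs cannot be told apart from one between populations. All intervals are 95% intervals and cover counting error only. The libraries shared between 1 and 3 barcode sequences per pair. The labelled identities were checked on marker genes. All 9 stem or multipotent markers reached 10 CPM in LMPP, 4 did in CLP and 0 in pro-B. All 8 early B markers reached 10 CPM in CLP and in pro-B, but 1 did in LMPP. CLP also held a cluster of 84 plasmacytoid dendritic-like cells and 1 of 13 NK/innate lymphoid-like cells, which touch several results below.

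Kit lies on chromosome 5 (GRCm38 75574916 to 75656722, plus strand) and Flt3 lies far downstream on the same chromosome (147330741 to 147400489, minus strand). A noncoding antisense gene, Gm26597, overlaps the 5′ end of Flt3. The 5 Ly6 genes sit in 349.9 kb of chromosome 15, in the order Ly6d (74762056 to 74763620), Ly6e (74955051 to 74959905), Ly6a (74994877 to 74998031), Ly6c1 (75044018 to 75048830) and Ly6c2 (75108158 to 75111970), all on the minus strand except Ly6e. The bases just upstream of the first annotated start are shown for Kit and Flt3, because their transcripts parted between LMPP and CLP, and for Ly6c1 and Ly6c2, because the likeness of these neighbours bears on how far their counts can be trusted. Sequences are from RefSeq (GRCm38.p6), each on its gene's own strand, and capitals mark CG steps.
Kit, chr5:75574737-75574915, plus strand: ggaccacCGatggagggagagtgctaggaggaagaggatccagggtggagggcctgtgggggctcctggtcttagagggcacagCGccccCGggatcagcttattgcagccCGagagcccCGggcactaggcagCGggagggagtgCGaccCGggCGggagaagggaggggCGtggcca
Flt3, chr5:147400490-147400739, minus strand: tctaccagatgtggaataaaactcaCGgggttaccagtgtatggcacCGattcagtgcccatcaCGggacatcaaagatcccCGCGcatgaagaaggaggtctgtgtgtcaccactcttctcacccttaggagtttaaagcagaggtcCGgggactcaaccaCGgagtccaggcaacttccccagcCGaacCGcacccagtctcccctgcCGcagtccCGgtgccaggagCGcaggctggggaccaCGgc
Ly6c1, chr15:75048921-75049087, minus strand: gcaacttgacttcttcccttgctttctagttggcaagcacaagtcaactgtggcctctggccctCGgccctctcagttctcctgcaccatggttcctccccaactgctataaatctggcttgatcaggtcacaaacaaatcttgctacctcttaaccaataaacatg
Ly6c2, chr15:75112067-75112221, minus strand: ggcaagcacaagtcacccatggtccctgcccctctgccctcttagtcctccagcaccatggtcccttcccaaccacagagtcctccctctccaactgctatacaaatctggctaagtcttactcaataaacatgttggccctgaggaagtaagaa

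The capitals are dense in the first pair and almost missing from the second. In the full 300-base windows around the RefSeq start, Kit had 20 CG steps and 69% G or C, and Flt3 had 18 and 61%. Ly6c1 had 1 CG step and 49% G or C, and Ly6c2 had 0 and 50.3%, against medians of 7 and 52.7% over 32851 mouse promoters. The Ly6c1 and Ly6c2 windows aligned over 266 bases, of which 208 (78.2%) were identical. Of 7 motifs searched on both strands, the printed Ly6c2 stretch held the Runx motif TGTGGT (on the reverse strand) and the Spi1 motif GAGGAAGT, which 16.8% and 3.20% of all promoter windows also held. Further downstream, in the rest of the window, both Ly6c genes held the E protein box CAGCTG (16.3% of all windows). The windows of Kit and Flt3 held no match to these, to the E box CAGGTG, to the Gata motif AGATAA or to the searched Ebf1 and interferon response motifs, which says only that those letters were not there.

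The likeness of the Ly6 neighbours extends to the transcript ends, from which this chemistry counts. Of the 50-base words in the last 500 bases of their transcripts, 34.8% for Ly6c2, 29.2% for Ly6c1 and 8.13% for Ly6a also occurred in another gene (Ly6a, Ly6c1, Ly6c2, Ly6i or I830127L07Rik). None did for Kit, Flt3, Ly6d or Ly6e. Counts of Ly6c1 and Ly6c2 are therefore uncertain as to which of the genes they belong to, and reads matching several genes may have been lost from them.

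Of the 7 genes, 5 fell into 4 patterns over the 3 stages, and Ly6c1 and Ly6c2 were too scarce to place. Kit and Ly6a were highest in LMPP and stepped down at each stage. Flt3 was level between LMPP and CLP and nearly gone in pro-B. Ly6d peaked in CLP. Ly6e climbed at each stage. In what follows, a gene was measured in a comparison when it reached 10 CPM in the higher library, and counted as different when the ratio was at least 2-fold.

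**Figure D1:**
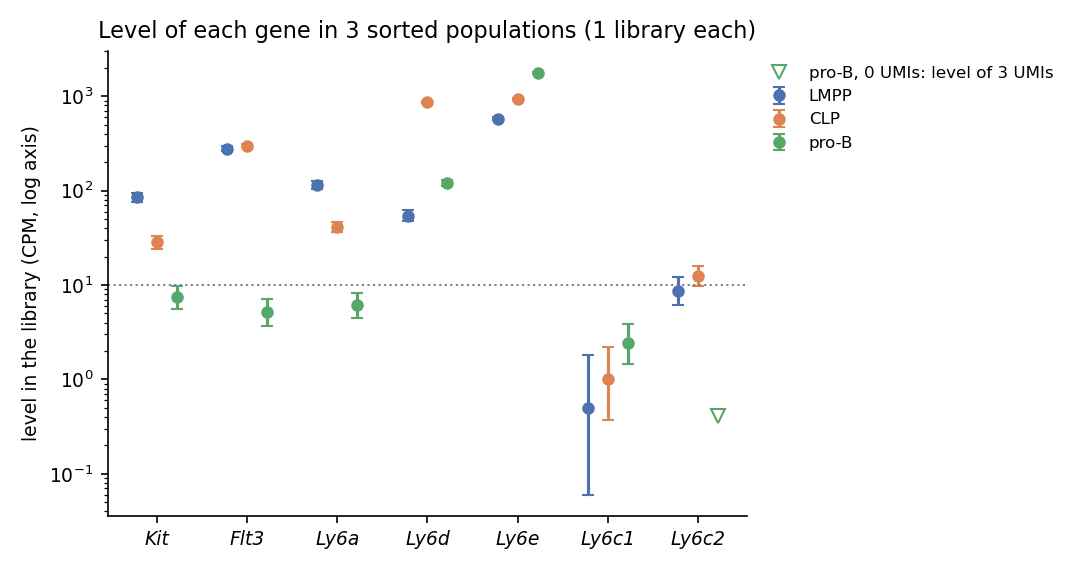
Level of each gene in the LMPP, CLP and pro-B libraries in CPM on a log axis, with exact Poisson 95% intervals. Kit and Ly6a descend from LMPP to pro-B, Flt3 stays near 300 CPM until pro-B, Ly6d peaks in CLP at 873 CPM and Ly6e climbs to 1782 CPM; the dotted line is the 10 CPM minimum, and the open triangle is the level of 3 UMIs where Ly6c2 had none.

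Kit is the stem cell factor receptor. It was counted with 342 UMIs in LMPP, 169 UMIs in CLP and 55 UMIs in pro-B cells. This corresponded to 85.2 CPM (interval 76.4 to 94.7), 28.3 CPM (24.2 to 32.9) and 7.47 CPM (5.62 to 9.72), and no 2 of the intervals overlapped. The level was 3.01-fold lower in CLP than in LMPP (log2 ratio −1.59, interval −1.86 to −1.32) and a further 3.79-fold lower in pro-B (−1.92, −2.39 to −1.48), although all 3 gates required the Kit protein. A lower mean over a library cannot separate fewer cells with the transcript from less transcript per cell. In cells thinned to 2000 UMIs each, Kit was detected in 17.5% of 573 LMPP cells (interval 14.4 to 20.8), 4.96% of 908 CLP cells (3.64 to 6.58) and 1.78% of 1070 pro-B cells (1.07 to 2.76). Without thinning these shares were 42.8%, 15.6% and 4.70%. No LMPP cell held more than 5 Kit UMIs and no pro-B cell more than 2, so the shares follow depth closely and most cells sorted for the protein showed no Kit UMI.

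Flt3, the receptor for Flt3 ligand, was counted with 1121 UMIs in LMPP, 1793 UMIs in CLP and 38 UMIs in pro-B. Its level was 279 CPM (263 to 296) in LMPP and 300.5 CPM (287 to 315) in CLP, a log2 ratio of 0.11 (−0.0027 to 0.21) whose interval includes no difference, although the CLP gate admitted Flt3-negative cells. It was detected in 44.9% of thinned LMPP cells (40.7 to 49.0) and 43.6% of thinned CLP cells (40.4 to 46.9), and in 82.0% and 76.6% of unthinned ones. In pro-B, whose gate excluded the Flt3 protein, the level was 5.16 CPM (3.65 to 7.08), 58.3-fold lower than in CLP (log2 −5.86, −6.37 to −5.40), and 0.841% of thinned cells (0.385 to 1.59) held a UMI.

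Ly6a, the gene of Sca1, was counted with 459 UMIs in LMPP, 245 UMIs in CLP and 45 UMIs in pro-B. Its level was 114 CPM (104 to 125) in LMPP and 41.1 CPM (36.1 to 46.5) in CLP, 2.78-fold lower (log2 −1.48, −1.71 to −1.25), with both gates positive for Sca1. It stood at 6.11 CPM (4.46 to 8.17) in pro-B, whose gate excluded Sca1, and was 6.72-fold lower there than in CLP (log2 −2.75, −3.24 to −2.29). The thinned shares were 19.0% (15.9 to 22.5), 6.61% (5.08 to 8.42) and 0.841% (0.385 to 1.59). The pro-B gate was negative for the Flt3 and Sca1 proteins and positive for Kit, and the interval of the Kit share in these cells (1.78%) overlapped that of the Flt3 and Ly6a shares (0.841% each). Whether these few UMIs come from the cells themselves or from free RNA was not tested.

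**Figure D2:**
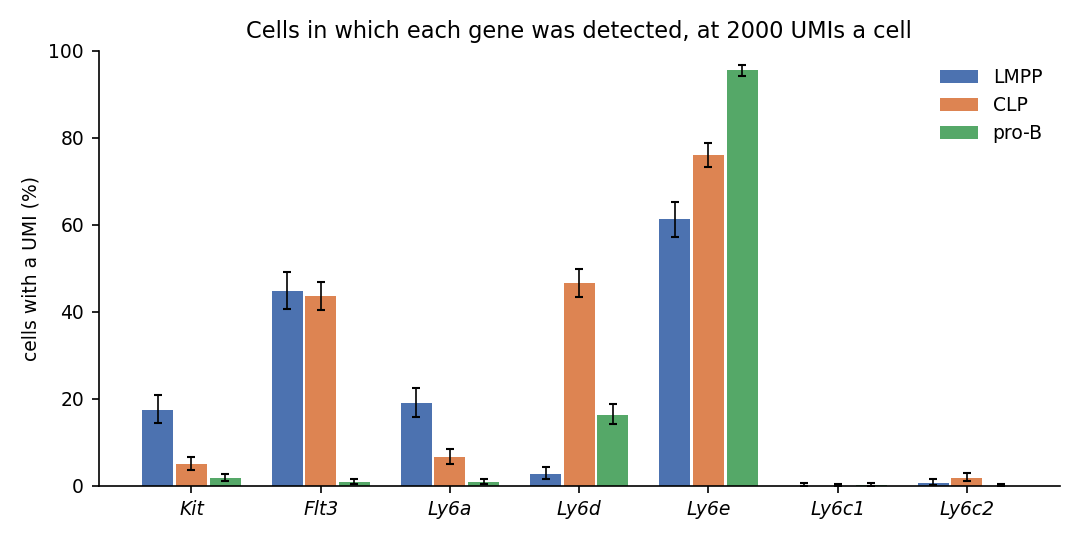
Share of cells with at least 1 UMI of each gene after every cell was thinned to 2000 UMIs, by library (573 LMPP, 908 CLP and 1070 pro-B cells), with exact Clopper-Pearson 95% intervals. Flt3 bars are alike in LMPP and CLP (44.9% and 43.6%), Ly6d stands out in CLP (46.6%), and Ly6e reaches 95.5% in pro-B.

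Ly6d, the marker of B-biased lymphoid progenitors, was the member with the widest change between LMPP and CLP. The LMPP library held 218 of its UMIs, CLP 5207 and pro-B 887, or 54.3 CPM (47.3 to 62.0), 873 CPM (849 to 897) and 120 CPM (113 to 129). It was 16.1-fold higher in CLP than in LMPP (log2 4.01, 3.81 to 4.21), above 99.8% of the genes measured, and 7.25-fold lower in pro-B than in CLP (log2 −2.86, −2.96 to −2.75). Pro-B remained 2.22-fold above LMPP with all cells (log2 1.15, 0.93 to 1.37), but at 1.75-fold (log2 0.81) when libraries were scaled without mitochondrial and ribosomal genes.

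The LMPP level of Ly6d came from very few cells. Of 579 LMPP cells, 30 held any Ly6d UMI, and 5 cells with 79, 47, 22, 15 and 10 UMIs held 79.4% of the total. All 5 belonged to the same cluster of 156 cells, which was led by DNA replication genes and Irf8 and was not named by its markers, and none was called a doublet. At a finer clustering (resolution 1.0) 40 LMPP cells were named plasmacytoid dendritic-like, and they held 89.4% of the Ly6d UMIs of the library. The 5 richest cells held between 10 and 27 UMIs of Irf8, a transcription factor of dendritic cells and monocytes, and 0 of Ebf1 or Cd79a. The top cell also held 7 UMIs of Siglech, a receptor of plasmacytoid dendritic cells, and 11 of Ly6c2, and another held 14 of Ly6c2. Without the 5 richest cells of each library, Ly6d was 70.7-fold higher in CLP than in LMPP (log2 6.14) and 9.95-fold higher in pro-B than in LMPP (log2 3.31). With cells thinned, 2.62% of LMPP cells (1.47 to 4.28), 46.6% of CLP cells (43.3 to 49.9) and 16.4% of pro-B cells (14.2 to 18.7) held a Ly6d UMI.

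Within CLP, Ly6d was spread over a wide range. After thinning, 53.4% of cells had no Ly6d UMI, 18.9% had 1, 17.6% had 2 to 4, 6.17% had 5 to 9 and 3.85% had 10 or more. Without thinning, and with the dendritic-like cells included, the variance of Ly6d across CLP cells was 28.4 times the mean. The plasmacytoid dendritic-like cluster, 8.86% of CLP cells, held 47.6% of the Ly6d UMIs at 3879 CPM (3728 to 4035), and the 5 richest cells, with 88 to 107 UMIs each, all lay in it. Without this cluster and the NK/innate lymphoid-like one, CLP stood 9.50-fold above LMPP (log2 3.25) and pro-B 4.29-fold below CLP (log2 −2.10). When the LMPP cluster richest in Ly6d was left out as well, CLP stood 57.9-fold above LMPP (log2 5.86) and pro-B 13.5-fold above LMPP (log2 3.76). The direction between stages was the same under each of these choices, and the size was not. The early B-like cluster of 227 cells had 778 CPM of Ly6d (733 to 824), above the 405 CPM (381 to 429) of the largest CLP cluster.

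**Figure D3:**
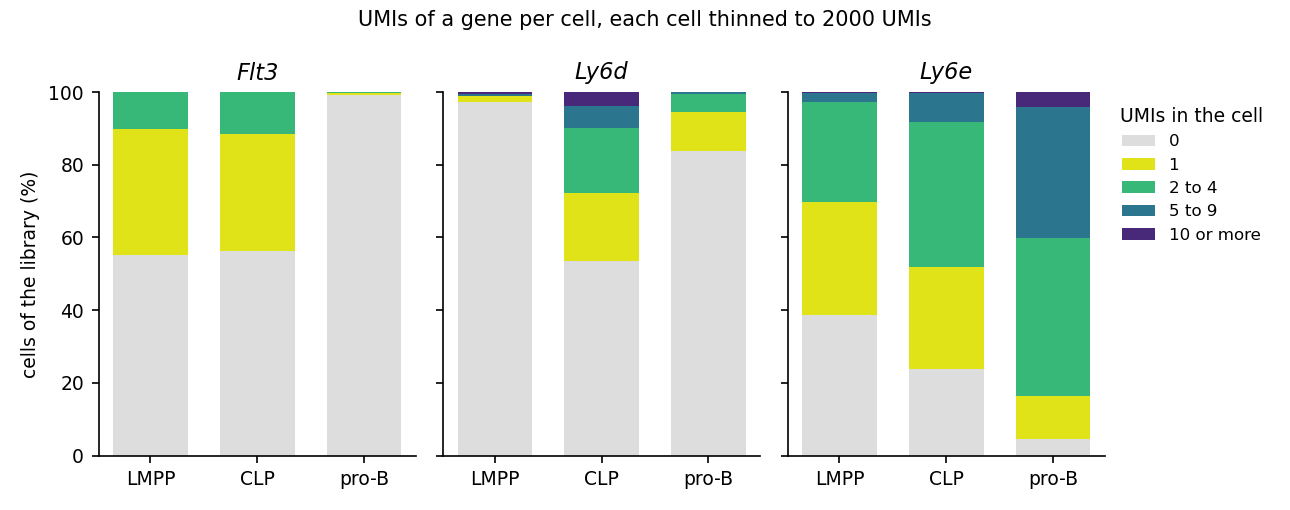
Percent of cells by the number of Flt3, Ly6d and Ly6e UMIs they held after thinning to 2000 UMIs, for each library. Flt3 is 0 or low in every cell, Ly6d in CLP runs from none in 53.4% of cells to 10 or more in 3.85%, and 36.2% of pro-B cells hold 5 to 9 Ly6e UMIs.

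Ly6e was detected in most cells of every stage and its level was higher at each later stage. LMPP held 2325 of its UMIs, CLP 5631 and pro-B 13128, or 579 CPM (556 to 603), 944 CPM (919 to 969) and 1782 CPM (1752 to 1813). The step from LMPP to CLP was 1.63-fold (log2 0.70, 0.63 to 0.77) and that from CLP to pro-B 1.89-fold (log2 0.92, 0.87 to 0.96), so neither step reached 2-fold, whereas pro-B stood 3.08-fold above LMPP (log2 1.62, 1.56 to 1.69). The second step lies close to the threshold: it was 1.52-fold when libraries were scaled without mitochondrial and ribosomal genes, and past 2-fold with median-of-ratios scaling (2.03-fold), with equal weight per cell (2.20-fold) and without the dendritic-like and innate lymphoid-like clusters (2.08-fold). The thinned shares were 61.3% (57.1 to 65.3), 76.1% (73.2 to 78.8) and 95.5% (94.1 to 96.7). In pro-B, 36.2% of thinned cells held 5 to 9 Ly6e UMIs and 4.11% held 10 or more, against 2.62% and 0.175% in LMPP.

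Ly6c1 and Ly6c2 were scarce. Ly6c1 had 2 UMIs in LMPP (0.50 CPM), 6 in CLP (1.01 CPM) and 18 in pro-B (2.44 CPM), never reached 10 CPM and was not measured in any comparison. Ly6c2 had 35 UMIs in LMPP and 75 in CLP, and none of 1106 pro-B cells held any. Its level was 8.72 CPM (6.07 to 12.1) in LMPP and 12.6 CPM (9.89 to 15.8) in CLP, with overlapping intervals and a log2 ratio of 0.53 (−0.069 to 1.15). Against 3 UMIs in pro-B, which is 0.407 CPM, Ly6c2 was at least 30.9-fold lower in pro-B than in CLP, but the bound was 7.0-fold (log2 −2.81) without the dendritic-like and innate lymphoid-like clusters of CLP. Its count of 0 allows a share of up to 0.271% of cells with a UMI. In CLP, 60 of the 75 Ly6c2 UMIs lay in the plasmacytoid dendritic-like cluster, at 93.8 CPM (71.6 to 121). Of 42 CLP cells with a Ly6c2 UMI, 40 also held Ly6d and 32 also held Siglech. In LMPP, 30 of 35 Ly6c2 UMIs lay in the cluster that held most of the Ly6d, with 14 and 11 of them in single cells. The direction between LMPP and CLP depended on these cells. CLP was 3.06-fold below LMPP (log2 −1.61) when the dendritic-like and innate lymphoid-like clusters were left out of CLP alone, and 1.28-fold below (log2 −0.35) when every cell weighed the same. It was 1.54-fold above (log2 0.62) when the LMPP cluster richest in Ly6d was left out too, and 5.49-fold above (log2 2.46) without the 5 cells of each library richest in Ly6c2.

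Counted over the measured members, 3 of 6 differed at least 2-fold between CLP and LMPP, Kit and Ly6a lower and Ly6d higher in CLP, against 7.95% of 7747 genes measured in that comparison (4.36% higher and 3.59% lower). Between pro-B and CLP, 5 of 6 differed, all lower in pro-B (Kit, Flt3, Ly6a, Ly6d and Ly6c2), against 27.5% of 7867 genes (13.9% higher and 13.6% lower). Of these, Kit, Flt3, Ly6a and Ly6c2 lay under 10 CPM in pro-B and were measured only through CLP. For Ly6c2, 60 of the 75 CLP UMIs lay in the dendritic-like cluster. Without the dendritic-like and innate lymphoid-like clusters the count was again 5, but Ly6c2 fell under 10 CPM. Ly6e passed in its place, 2.08-fold higher in pro-B. Between pro-B and LMPP, 5 of 5 differed, Kit, Flt3 and Ly6a lower and Ly6d and Ly6e higher, against 29.3% of 7995 genes (14.7% in each direction). Kit, Flt3 and Ly6a were measured there only through LMPP. With a 4-fold threshold, 1 member (Ly6d) passed for CLP over LMPP, against 1.97% of genes, and 3 (Kit, Flt3 and Ly6a) for pro-B over LMPP, against 11.5%. With at least 50 CPM required, 2 members (Flt3 and Ly6d) passed the 2-fold threshold for pro-B over CLP, against 30.7% of 3002 genes. The counts with pro-B include Flt3 and Ly6a, whose proteins the gate excluded there; the part of the gate in their transcript levels was not tested. The comparisons share libraries and are not independent of each other. The median log2 ratio over all measured genes was −0.0079, 0.060 and 0.067. The ribosomal gene share of UMIs was 43.5% for LMPP, 41.9% for CLP and, at 29.6%, lower for pro-B. Of the genes called for pro-B over CLP, 50.6% were higher in pro-B, but 26.1% when libraries were scaled without mitochondrial and ribosomal genes, and 58.3% with median-of-ratios scaling. For pro-B over LMPP these shares were 50%, 25.4% and 56.2%.

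**Figure D4:**
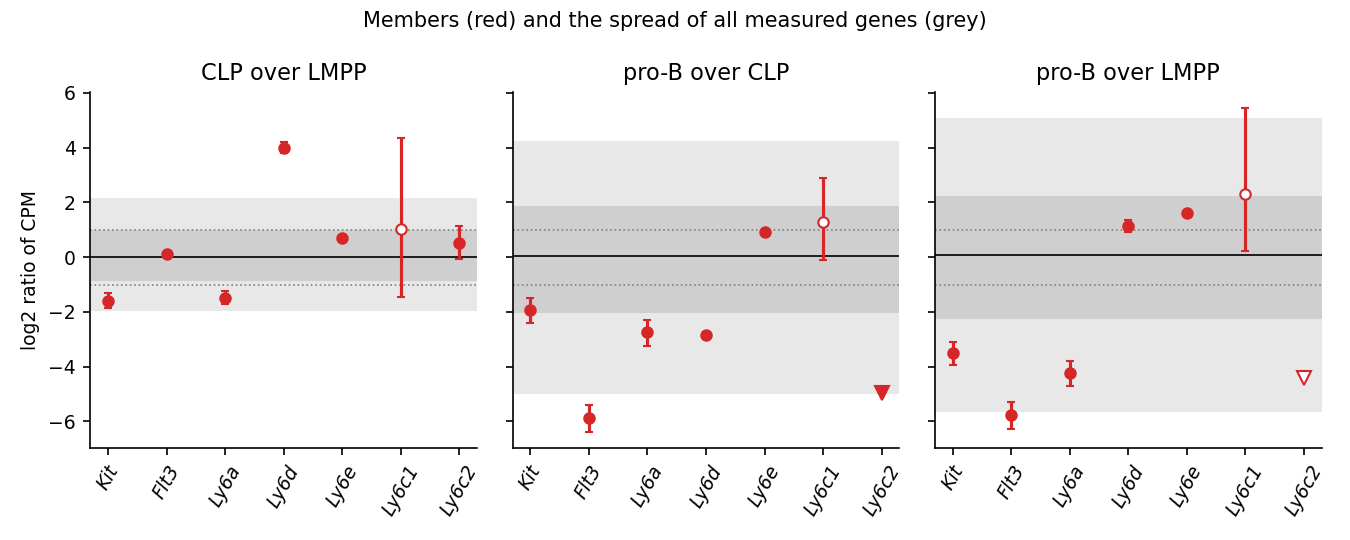
Log2 ratio of CPM of each gene in the 3 comparisons (red, with exact conditional 95% intervals; triangles are bounds, open symbols genes under 10 CPM) over the spread of all measured genes (dark grey, 5th to 95th percentile; light grey, 1st to 99th; black line, median). Ly6d lies above the light band for CLP over LMPP at 4.01, and Flt3 below it in both comparisons with pro-B at −5.86 and −5.76.

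Each library was clustered by itself, without the 7 genes, to see how they varied inside a sorted population. In LMPP the stem or multipotent-like cluster of 172 cells had 113 CPM of Kit (93.4 to 136) and 172 CPM of Ly6a (148 to 200), the highest of the 5 clusters at the main setting. In the cluster of 156 cells led by replication genes they stood at 71.9 CPM (58.1 to 87.9) and 82.5 CPM (67.7 to 99.5). The ranking depended on the clustering. At resolution 1.0, 14 cells led by interferon stimulated genes had 451 CPM of Ly6a (321 to 616) against 203 CPM (166 to 247) in the stem or multipotent-like cluster. With 1000 variable genes an unnamed cluster of 99 cells, led by Ifit1 and Klf6, had 179 CPM of Ly6a (148 to 215) and 112 CPM of Kit (87.9 to 141), against 148 CPM (128 to 171) and 110.0 CPM (92.4 to 130.0) in the stem or multipotent-like one. Flt3 at the main setting was highest, at 424 CPM (363 to 492), in an unnamed cluster of 67 cells led by Ccr9, Cd74 and Ebf1, where Ly6a was 164 CPM and Kit 73.5 CPM. In the stem or multipotent-like cluster Flt3 was 296 CPM (264 to 332).

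In CLP at the main setting, Kit was highest in the largest cluster, led by Ccl5, Wfdc17 and Cd34, at 34.7 CPM (28.0 to 42.5). It was lowest in the plasmacytoid dendritic-like cluster at 10.9 CPM (4.40 to 22.6). The top rank was not firm: the early B-like cluster had 27.7 CPM (19.8 to 37.5), and at resolution 1.0 an unnamed cluster of 40 cells had 46.6 CPM (23.2 to 83.3). Flt3 was 222 CPM (187 to 262) in the dendritic-like cells and lay between 283 and 369 CPM in the other clusters, except the 13 NK/innate lymphoid-like cells with 2 Flt3 UMIs (30.7 CPM, 3.72 to 111). The same 13 cells had 123 CPM of Ly6a (53.0 to 242), from 8 UMIs in 3 cells, and 1872 CPM of Ly6e (1555 to 2236). Ly6e was also high in the dendritic-like cluster, at 1563 CPM (1467 to 1663), and in the early B-like cluster, at 1179 CPM (1124 to 1236), against 726 CPM (694 to 759) in the largest cluster.

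In pro-B, Ly6e ranged from 708 CPM (653 to 767) in a cluster of 58 cells led by Mt1, Srm and Myc, whose cells had a median of 13938 UMIs, to 2484 CPM (2396 to 2574) in a cluster of 407 cells led by Ltb and Selm, whose median was 2826 UMIs. The part of depth in this range was not tested. Of the 38 Flt3 UMIs in pro-B, 24 lay in 253 cells led by S phase genes, at 10.2 CPM (6.56 to 15.2), and 1 in the 407 cells just named (0.82 CPM, 0.021 to 4.58). Kit stood between 3.51 and 11.5 CPM in the pro-B clusters, and Ly6d between 50.2 and 146 CPM.

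**Figure D5:**
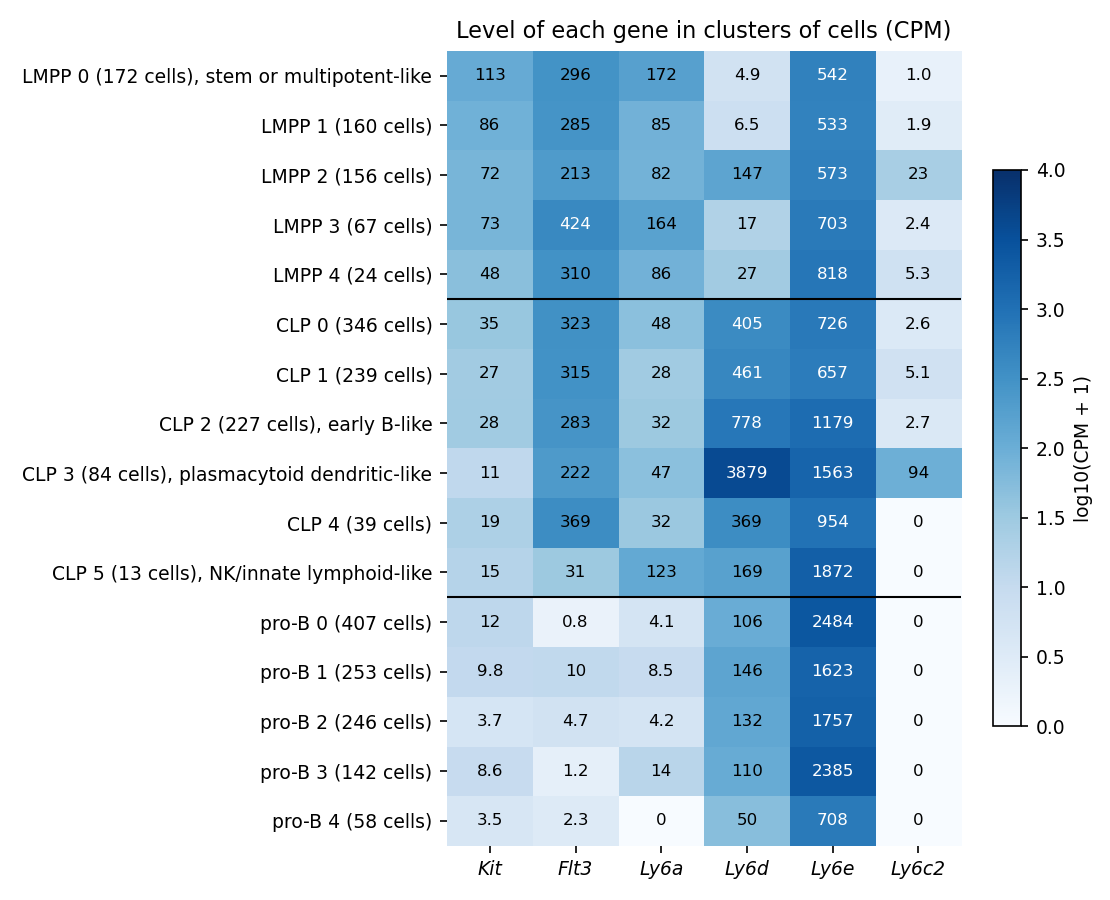
Level of 6 of the genes, in CPM, in the clusters of each library, with colour on a log10(CPM + 1) scale; clusters were built without these genes, and names are given only where the fixed markers allow. Kit and Ly6a pale from the top block to the bottom, the 84 plasmacytoid dendritic-like cells of CLP stand out in Ly6d (3879 CPM) and Ly6c2 (94 CPM), and Ly6e darkens towards pro-B.

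CLP cells were next divided by Ebf1, the transcription factor that specifies the B lineage. With the dendritic-like and innate lymphoid-like clusters left out and cells thinned, 370 cells with an Ebf1 UMI had 700.0 CPM of Ly6d (641 to 763) against 362 CPM (323 to 404) in 442 cells without. Ly6e was 1091 CPM (1017 to 1168) against 623 CPM (572 to 678). Flt3 was 296 CPM (258 to 338) against 318 CPM (282 to 357), Kit 27.0 CPM (16.5 to 41.7) against 27.1 CPM (17.4 to 40.4), and Ly6a 33.8 CPM (21.9 to 49.9) against 40.7 CPM (28.5 to 56.4). Thus Ly6d and Ly6e were higher in the Ebf1-positive cells, and the intervals of the sort marker genes overlapped. The result for Ly6d rests on leaving those clusters out: over all CLP cells it was 710 CPM (651 to 773) with and 939 CPM (882 to 999) without Ebf1.

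Divided the other way, 59.9% of the 357 CLP cells with a Ly6d UMI held Ebf1, against 34.3% of 455 without, in the same clusters. Ly6e was 1043 CPM (970 to 1121) against 674 CPM (621 to 729) in them. Flt3 was 311 CPM (271 to 355) against 305 CPM (271 to 344), and Kit was 22.4 CPM (12.8 to 36.4) against 30.8 CPM (20.4 to 44.5).

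The number of thinned cells that held a pair of members was set beside the number that their separate shares give by multiplication. In LMPP, 42 of 573 cells held both Kit and Flt3, against 44.9 by multiplication, and 19 held Kit and Ly6a, against 19.0. In CLP, 24 of 908 cells held Kit and Flt3, against 19.6, and 181 held Flt3 and Ly6d, against 184. The pair with the most cells above its product was Ly6d and Ly6e in CLP, with 357 cells (39.3%, 36.1 to 42.6) against 322 (35.5%), or 1.11 times the product. With cells thinned to 4000 UMIs it was 1.03 times, and with 1000 UMIs 1.23 times. Ly6d and Ly6c2 were together in 13 CLP cells (1.43%, 0.764 to 2.44) against 7.92, and in 2 LMPP cells (0.349%, 0.0423 to 1.26) against 0.0785.

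Ly6a and Ly6e are known to respond to interferon, so cells were also divided by interferon stimulated genes. The list held 14 genes, and Bst2 and Ifi27l2a were left out of this division. In LMPP, 215 thinned cells with a UMI of these genes had 151 CPM of Ly6a (117 to 193), against 90.8 CPM (70.1 to 116) in 358 cells without. Ly6e was 691 CPM (614 to 774) against 527 CPM (475 to 582). In CLP, Ly6a was 69.5 CPM (48.7 to 96.2) against 27.7 CPM (19.4 to 38.4), while the intervals of Ly6e overlapped, at 1012 CPM (927 to 1102) against 888 CPM (837 to 940). Bst2 is also a plasmacytoid dendritic marker and supplied 177 of the 636 CPM of the whole list in LMPP, but no cell was assigned by it. The plasmacytoid dendritic-like cluster of CLP, with 1563 CPM of Ly6e, was not left out of this division, and its part in the CLP values was not tested. Between CLP and LMPP, 12 genes of the whole list of 14 were measured. Of these, 4 (Isg15, Ifit1, Oasl2 and Zbp1) were lower in CLP than in LMPP and 0 were higher, beside 3.59% lower and 4.36% higher over all genes. Between pro-B and CLP, 3 of 9 were lower in pro-B and 2 higher, beside 13.6% and 13.9%. Between pro-B and LMPP, 6 of 12 were lower in pro-B and 1 higher, beside 14.7% each way, while Ly6e was higher in pro-B. The part of interferon in the Ly6e levels of the libraries was not tested.

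Transcripts of G2/M genes made up a larger part of pro-B: all 18 listed were at least 2-fold higher there than in CLP, beside 13.9% of all measured genes. Within pro-B, 558 thinned cells with 3 or more G2/M UMIs had 1881 CPM of Ly6e (1801 to 1963) against 2316 CPM (2224 to 2412) in the other 512. Ly6d was 141 CPM (120 to 164) against 119 CPM (98.9 to 142), and Kit 9.86 CPM (4.92 to 17.6) against 7.81 CPM (3.37 to 15.4). The part of cell division in the Ly6e level of pro-B was not tested. In CLP, 54 cells passed the same threshold and had 2389 CPM of Ly6d (2106 to 2699) against 746 CPM (706 to 789) in the other 854. Their level of Siglech was 139 CPM (77.7 to 229) against 42.1 CPM (33.0 to 53.1), so a plasmacytoid dendritic marker moved with this division.

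Genes around the receptors were read from fixed lists. Of the ligand genes, named after their values were seen because both lay under 10 CPM, Kitl had 1 UMI in CLP and 0 in the other libraries. Flt3l had 24 UMIs in LMPP, 14 UMIs in CLP and 15 UMIs in pro-B. Of 7 ligands and related receptors only Pdgfrb, a receptor for platelet-derived growth factor, was measured. It stood at 40.4 CPM in LMPP, 36.9 CPM in CLP and 0 UMIs in pro-B, at least 90.5-fold lower than in CLP. Of 25 genes of the signalling chain below the receptors, 21 were measured between CLP and LMPP, 1 was higher in CLP (Pik3cd, a catalytic PI3 kinase subunit, 61.5 against 24.7 CPM) and 0 were lower. Their median log2 ratio was −0.035, beside −0.0079 over all genes, of which 4.36% were higher and 3.59% lower. Between pro-B and CLP, 20 were measured and 3 were lower in pro-B, beside 13.6% over all genes. These were Pik3r1, a regulatory PI3 kinase subunit (47.8 against 142 CPM), the tyrosine kinase gene Fes (6.79 against 22.5 CPM) and the signal transducer Stat5b (9.77 against 24.8 CPM). The adaptor Grb2 was near level, with 102 CPM in LMPP, 88.0 CPM in CLP and 104 CPM in pro-B.

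Negative regulators of the receptors formed the next list. Of 15 measured between CLP and LMPP, 4 were higher in CLP and 0 lower (median 0.29), beside 4.36% higher and 3.59% lower over all genes (median −0.0079). The cytokine signalling suppressors Socs1 (41.6 against 19.7 CPM) and Socs2 (28.5 against 5.73 CPM), the phosphatase gene Inpp5d (182 against 83.9 CPM) and the Ras pathway inhibitor Spry2 (14.1 against 5.98 CPM) made up the count. Between pro-B and CLP, 7 of 14 were lower and 1 higher (median −0.99, beside 0.060 over all genes, of which 13.6% were lower and 13.9% higher). Sla2, an adaptor that lowers receptor levels, was 27.9-fold lower in pro-B (1.63 against 45.4 CPM), the adaptor Dok2 19.9-fold lower (4.21 against 83.6 CPM) and Socs1 8.75-fold lower. Cbl, the ubiquitin ligase that marks activated receptors for degradation, was 2.14-fold lower, and Sla, Socs3 and Spry2 complete the 7. Of these 7 only Cbl (20.5 CPM) reached 10 CPM in pro-B, so the others were measured only through CLP. Socs2 went the other way, 2.09-fold higher in pro-B (59.6 CPM). Socs2 lies close to the threshold and falls under 2-fold if the log2 shift of −0.31 from scaling without mitochondrial and ribosomal genes is applied. With that shift Socs6 (log2 −0.88) and Cblb (−0.78), also among the 14 measured, pass 2-fold lower. Cbl (log2 −1.099) falls just under 2-fold if the shift of 0.101 from median-of-ratios scaling is applied.

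Transcription factors known to bind regulatory DNA of Kit or Flt3 formed the third list. Between CLP and LMPP, 11 of 13 were measured, 6 were lower in CLP and 2 higher (median −1.21), beside 3.59% lower, 4.36% higher and a median of −0.0079 over all genes. Gata2 stood at 0.84 against 25.2 CPM, and Cebpa was 5.44-fold, Lmo2 3.79-fold (194 against 737 CPM), Tal1 3.27-fold, Hoxa9 2.45-fold and Meis1 2.31-fold lower, while Ebf1 and Pax5 were higher. Between pro-B and CLP, 8 were measured, beside 13.6% lower and 13.9% higher over all genes: Hoxa9 (12.2-fold), Meis1 (6.26-fold), Lmo2 (5.08-fold) and Spi1 (2.33-fold) were lower and Ebf1 and Pax5 again higher. Runx1 (LMPP 40.9, CLP 57.8, pro-B 53.2 CPM) and Myb (LMPP 93.4, CLP 183, pro-B 170.4 CPM) stayed within 2-fold in all 3 comparisons.

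Few other genes of the Ly6 superfamily were present. Of 31 listed, 27 were in the files and 2 reached 10 CPM in any library. Lynx1, whose product binds nicotinic receptors, had 1.49 CPM in LMPP, 13.4 CPM in CLP and 9.77 CPM in pro-B. Cd59a, which protects cells from complement, had 12.7 CPM in LMPP, 7.21 CPM in CLP and 0 UMIs in pro-B. Of the enzymes that build and attach the GPI anchor, 17 were measured between CLP and LMPP and 0 differed, beside 7.95% of all genes. Between pro-B and CLP 1 of 17 did (Pigc, 6.79 against 17.6 CPM), beside 27.5% of all genes. That count depends on the scaling. Pigp (log2 −0.98), Pgap2 (−0.94), Pigx (−0.81) and Pigv (−0.72) fall past 2-fold lower if the shift of −0.31 from scaling without mitochondrial and ribosomal genes is applied. Under that scaling 2150 of 9272 genes were lower in pro-B and 758 higher. Between pro-B and LMPP 2 of 17 were lower in pro-B (Pigc and Pigp) and 0 higher, beside 14.7% of all genes in each direction. Here the same scaling shifts log2 ratios by −0.34, which takes Pgap2 (−0.89), Pigv (−0.88) and Pigx (−0.81) past 2-fold lower as well.

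Likeness to other genes was described over the 14 clusters of 30 or more cells, by Pearson's r of log2(CPM + 10) among 7074 genes. These clusters come from 3 libraries and share their depth and stage, so the values carry no p. The nearest to Kit were Ctla2b (r = 0.985), Adgrl4 (0.982) and the transcription factor gene Ikzf2 (0.974). The nearest to Flt3 were Saraf (0.977), H2-DMa and Hoxa7 (both 0.970), and to Ly6a were Pglyrp2 (0.963), Spi1 (0.962) and the chemokine gene Ccl3 (0.960). The nearest to Ly6d were Ly86 (0.943), the chemokine receptor gene Cxcr4 (0.942) and Snx9 (0.921). To Ly6e they were Pyhin1 (0.955), Cnp (0.946) and Sh3bgrl3 (0.939), and to Ly6c2 the Src family kinase gene Fgr (0.955), Snx18 (0.942) and Smpd3 (0.929). Among the members themselves Kit and Ly6a were closest (0.922), then Flt3 and Ly6a (0.840) and Kit and Flt3 (0.750), and Kit and Ly6e were the most opposed (−0.741).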

How the data were processed

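Per the submitters' processing notes the authors used Cell Ranger with mm10, and they deposited UMI counts per gene and barcode. Its version, the annotation and the way cells were called were not given in the sources used here. Kept barcodes had at least 500 genes and no more than 10% mitochondrial UMIs (579 of 599 LMPP, 948 of 979 CLP, 1106 of 1123 pro-B). The deposited counts were summed per library and scaled to CPM, with exact Poisson intervals for levels and exact conditional intervals for ratios. Where a library had 0 UMIs, 3 UMIs were used and the fold is a bound. Shares of cells used cells thinned to 2000 UMIs (6 LMPP, 40 CLP and 36 pro-B cells were shallower and left out) and exact Clopper-Pearson intervals.

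Each library was clustered with scanpy 1.11.5 and leidenalg 0.10.2 (resolution 0.5, 2000 variable genes, 20 components, 15 neighbours) without Ly6, Kit, Flt3, immunoglobulin and mitochondrial genes. A cluster was named when at least 3 markers of a type were 2-fold higher in it at 20 CPM or more and at least 2 were among its top 10 genes, a condition added after the clusters were seen. Scrublet called 30 LMPP, 14 CLP and 2 pro-B doublets, which were kept.

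Named genes were the members, list genes of 10 CPM or more and the 3 genes most like each member; genes leading a cluster fall outside that rule, and 1 result of the signalling list is not reported here. Members and lists were chosen with earlier results of these data known, and the divisions of cells by Ly6d, interferon and G2/M UMIs after the data were seen. Positions are from GENCODE M21 (GRCm38), and RefSeq promoters matched 4 of the 7 genes.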

Additional observations from a re-analysis of the deposited data

How the results depend on the processing

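No paired analysis was possible because each population has 1 library. The counts of members differing 2-fold were recomputed under 11 alternatives each and stayed within 1.5 times except for 3 values. A count could stay the same while its members changed. For pro-B over CLP, Ly6e replaced Ly6c2 without the dendritic-like and innate lymphoid-like clusters. For pro-B over LMPP, Ly6c2 replaced Ly6d (log2 0.81) when libraries were scaled without mitochondrial and ribosomal genes. With a 4-fold threshold, 1 member in place of 3 passed for CLP over LMPP, and 3 in place of 5 for pro-B over LMPP. With a minimum of 50 CPM, 2 in place of 5 passed for pro-B over CLP. Leaving mitochondrial and ribosomal genes out of the totals moves log2 ratios by −0.03 for CLP over LMPP, while ratios with pro-B move by −0.31 against CLP and −0.34 against LMPP. Kit and Ly6a kept their direction in each comparison under the alternatives run, as did Flt3 in the comparisons with pro-B. For CLP over LMPP, where its interval includes no difference, the log2 ratio of Flt3 lay between 0.0064 and 0.17. The log2 ratio of Kit for pro-B over CLP lay between −2.24 and −1.65, and that of Ly6e between 0.61 and 1.14. The alternative that also leaves out the LMPP cluster richest in Ly6d was chosen after the data were seen. With 1000 variable genes the CLP cluster that held most Ly6d (46.6% of its UMIs) was not named by its markers. Ratios of Ly6c1 and Ly6c2 rest on few UMIs.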
